A study of Mus musculus with 24 samples.

Results

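The transcription factor genes described here are 8 regulators known from haematopoietic stem cells: Mecom, Prdm16, Hlf, Meis1, Sox6, Erg, Mycn and Mllt3. They were taken by gene symbol, with every probe set that the array annotation gives to that symbol alone, which made 24 of the 34945 probe sets with 1 symbol and 8 of 18193 genes. Each gene is called by its brightest probe set (highest mean over all arrays), and its other probe sets are given beside it. RNA of sorted mouse blood progenitors was hybridised to 24 one-colour Affymetrix arrays, 3 in each of 8 groups. The 8 groups are KO and WT cells of the populations LSK GFPhi, LK GFPneg, LK GFPhi and LSK GFPneg-lo. KO cells lacked Ikaros through the null allele of line I74, made on C57BL/6 x 129SV. They also carried the GFP transgene of B-p-GFP-C, a line made on C57BL/6 x C3H. WT cells came from mice with this transgene and normal Ikaros. The reporter is built on Ikaros regulatory sequence, so the sort gate itself uses a readout of the Ikaros locus. The null allele is carried by all cells of the KO mice, and strain background cannot be told apart from genotype. The labels equate LSK GFPhi with LMPP (lymphoid-primed multipotent progenitors), LK GFPneg with MEP (megakaryocyte and erythroid progenitors), LK GFPhi with GMP (granulocyte and monocyte progenitors) and LSK GFPneg-lo with HSC (stem cells). No age is given. The titles call the arrays biological replicates and nothing says whether an array holds 1 animal or a pool, so p-values measure only the spread between arrays.

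Blood stem cells keep renewing themselves under a small set of nuclear regulators, most of which are turned down as cells commit to a lineage. Several of the 8 genes serve stem cells and a committed lineage as well: Sox6 acts in red cell precursors and Mllt3 has been tied to erythroid and megakaryocyte fates. Mecom encodes the zinc finger protein EVI1 and Prdm16 its closest relative, and mouse stem cells depend on both. Hlf encodes a PAR bZIP factor that marks stem cells, Meis1 a TALE homeodomain partner of HOX and PBX proteins, and Erg an ETS factor needed for stem cell maintenance. Mycn encodes a MYC family protein that shares its work in stem cells with Myc. Mllt3 encodes AF9, a chromatin reader that joins the super elongation and DOT1L complexes. The product of Ikzf1, Ikaros, binds DNA through zinc fingers and is needed for lymphoid development.

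Promoter sequences of 4 of the genes are shown. Mecom and Prdm16 were taken because they are relatives with like profiles. Sox6 and Meis1 were taken because they had the KO to WT differences that passed under the most settings. For Meis1 this holds for its second probe set, 1450992_a_at, and not for its brightest one. They are RefSeq windows (GRCm38.p6) of 300 bases, 250 before the start and 50 after, and all 4 lie on the minus strand. The windows are chr3:30509710-30510009 for the first of 2 listed Mecom starts, chr4:154636824-154637123 for Prdm16, chr11:19018920-19019219 for Meis1 and chr7:116038695-116038994 for the first of 6 listed Sox6 starts. The table held 17 such windows for the 8 genes. Capitals mark a 24-base run shared by Mecom and Prdm16, and in Meis1 the motif TGGGAA, read on both strands and known as an Ikaros core.
Mecom: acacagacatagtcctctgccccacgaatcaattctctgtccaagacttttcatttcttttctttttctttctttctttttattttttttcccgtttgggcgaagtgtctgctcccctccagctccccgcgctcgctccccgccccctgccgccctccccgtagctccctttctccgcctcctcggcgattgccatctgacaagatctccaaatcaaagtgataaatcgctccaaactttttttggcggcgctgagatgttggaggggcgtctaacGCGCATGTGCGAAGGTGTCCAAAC
Prdm16: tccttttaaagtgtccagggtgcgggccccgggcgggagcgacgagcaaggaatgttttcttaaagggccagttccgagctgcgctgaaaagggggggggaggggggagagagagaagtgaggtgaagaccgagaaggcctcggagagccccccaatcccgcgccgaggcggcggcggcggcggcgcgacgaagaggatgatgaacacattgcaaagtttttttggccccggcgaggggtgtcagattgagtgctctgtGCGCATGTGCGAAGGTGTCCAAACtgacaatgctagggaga
Meis1: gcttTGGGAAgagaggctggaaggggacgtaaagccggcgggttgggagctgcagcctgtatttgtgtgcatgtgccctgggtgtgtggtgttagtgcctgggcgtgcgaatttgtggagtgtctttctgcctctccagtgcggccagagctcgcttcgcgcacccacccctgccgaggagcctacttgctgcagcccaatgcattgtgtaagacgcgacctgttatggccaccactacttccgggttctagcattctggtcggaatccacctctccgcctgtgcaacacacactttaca
Sox6: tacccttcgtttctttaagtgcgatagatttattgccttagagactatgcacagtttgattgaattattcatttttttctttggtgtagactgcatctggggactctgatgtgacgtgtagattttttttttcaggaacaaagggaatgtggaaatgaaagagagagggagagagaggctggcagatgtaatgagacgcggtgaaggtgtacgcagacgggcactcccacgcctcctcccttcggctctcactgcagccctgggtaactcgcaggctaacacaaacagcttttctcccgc
The shared run lies 27 to 50 bases after the first listed start of Mecom and 10 to 33 bases after the annotated start of Prdm16. In Mecom the run ends at the last base of the window, so a longer shared run could not be seen. Pairs of the 8 genes were compared by the window of each gene's first listed start alone. The other 27 pairs shared runs of 7 to 14 bases, and 0 of 27023 other genes had the 24-base run in a promoter window. TGGGAA was present in 3 of the 17 windows (Meis1, Hlf and the third start of Erg) and in 25.6% of all 32851 promoter windows. It holds the ETS core GGAA within it. None of the 6 Sox6 windows had it. The motif was chosen with the expression values known, and a match is a description of letters. By gene, Mecom lies at chr3:29951296-30509759, Prdm16 at chr4:154316122-154637360, Mllt3 at chr4:87769925-88033407, Sox6 at chr7:115470872-116040776, Meis1 at chr11:18880428-19019651, Hlf at chr11:90336535-90390917, Mycn at chr12:12936093-12941836 and Erg at chr16:95359169-95586600 in the same build.

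The arrays carried the labels' genotype. On the informative probe set of Ikzf1, KO arrays lay at 8.19, 7.02 and 7.07 in LSK GFPhi, against 11.72, 11.41 and 11.59 on WT arrays, on the RMA log2 scale used for all levels below. The mean over KO arrays was between 7.24 and 8.40 in the 4 populations, and between 11.15 and 11.84 over WT arrays. Replicate arrays correlated at 0.974 to 0.994 across probe sets, which are not independent. The Y-linked gene Eif2s3y, which is read in male cells, was between 7.20 and 8.33 on the KO arrays numbered 2 and at 7.74 on KO LK GFPhi replicate 3. It was between 3.99 and 4.14 on the other 7 KO arrays, against 7.88 to 10.40 on the 12 WT arrays. Among WT arrays, Eif2s3y was at 7.88 to 8.10 on those numbered 2 and at 8.91 to 10.40 on the others. Its level was therefore tried as a covariate. The level went largely with genotype, and the labels give no sex. A part of sex in the KO to WT differences therefore cannot be told apart from genotype, with or without the covariate. KO LK GFPhi replicate 3 also had the highest mast and basophil marker mean (10.20, against 8.78 and 8.84 on the other KO LK GFPhi arrays). Marker means of the WT groups were set beside the labels. The mean of 7 erythroid markers was 12.18 to 12.30 on WT LK GFPneg arrays, 7.80 to 8.15 on WT LK GFPhi arrays and 9.78 to 10.34 on WT LSK GFPneg-lo arrays. The mean of 6 HSC surface markers was 8.44 to 8.96 on WT LSK GFPhi arrays and 10.41 to 10.83 on WT LSK GFPneg-lo arrays. The mean of 6 lymphoid markers was 10.001 to 10.274 on WT LSK GFPhi arrays, 9.63 to 9.89 on WT LK GFPhi arrays and 7.25 to 7.53 on WT LSK GFPneg-lo arrays. The mean of 7 granulocyte and monocyte markers was 11.10 to 11.29 on WT LSK GFPhi arrays, 7.66 to 8.37 on WT LK GFPneg arrays and 11.81 to 12.72 on WT LK GFPhi arrays. KO marker means are given beside the results for some of the lists and populations, and not for LSK GFPneg-lo.

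Not all 24 probe sets carried a measurable signal of their gene. Of the 24, 7 varied by under 0.35 between the lowest and highest group mean, although the brightest probe set of the same gene varied by 3.93 to 4.96. These were Mecom 1422295_at and 1423011_at, Prdm16 1429309_at and 1429308_at, Erg 1425370_a_at, and Mycn 1425923_at and 1425922_a_at. For Mecom, Erg and Mycn the account therefore rests on 1 probe set each. The second probe sets of Hlf, 1434736_at (r = 0.953 with the brightest over 24 arrays), Meis1, 1450992_a_at (0.955), Prdm16, 1440745_at (0.921), and Mllt3, 1431890_a_at (0.969), tracked the brightest one, and so did Sox6 1447655_x_at (0.965), 1434918_at (0.947) and 1426018_a_at (0.905). The second probe set of Hlf ranged over 5.52, against 3.57 for its brightest one. Levels of different probe sets are not compared with each other, since hybridisation differs between them.

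The first comparison asks where the 8 regulators lie among the populations. They were lower outside the LSK GFPneg-lo population with few exceptions. In LK GFPneg cells 7 of 8 genes were lower than in LSK GFPneg-lo cells of the same genotype, in KO and in WT cells alike, and the exception in both was Mllt3. The median difference was -3.56 in KO cells and -3.28 in WT cells, against 0.06 and 0.03 over all genes. Over all genes 13.3% were lower there in KO cells and 13.9% in WT cells. In bulk RNA of a sorted population, fewer cells with a transcript and less transcript per cell cannot be told apart. 

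In LK GFPhi cells, 8 of 8 genes were lower than in LSK GFPneg-lo cells in the KO (background 6.01%) and 7 of 8 in the WT (background 7.48%). The KO count was 7 in 5 of the 6 fits that left out 1 of these KO arrays. The median differences were -2.42 in KO and -3.10 in WT cells. The gene that did not pass in WT cells was Erg, at -0.79 ± 0.26 (adjusted p = 0.0596), against -0.86 ± 0.26 (adjusted p = 0.0428) in KO cells. The difference between these 2 Erg changes, -0.07 ± 0.37 (adjusted p = 0.967), did not pass. In LSK GFPhi cells, 5 of 8 were lower than in LSK GFPneg-lo cells in the KO (background 1.26%), and 6 of 8 in the WT (background 2.59%), with median differences of -1.22 and -1.72. Prdm16 passed in WT cells alone, at -2.01 ± 0.31 (adjusted p = 0.000459), against -1.0 ± 0.31 (adjusted p = 0.166) in KO cells. The difference between these KO and WT changes in Prdm16, 1.01 ± 0.44 (adjusted p = 1.0), did not pass. Meis1 and Erg passed in neither genotype. These comparisons share their LSK GFPneg-lo arrays.

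**Figure D1:**
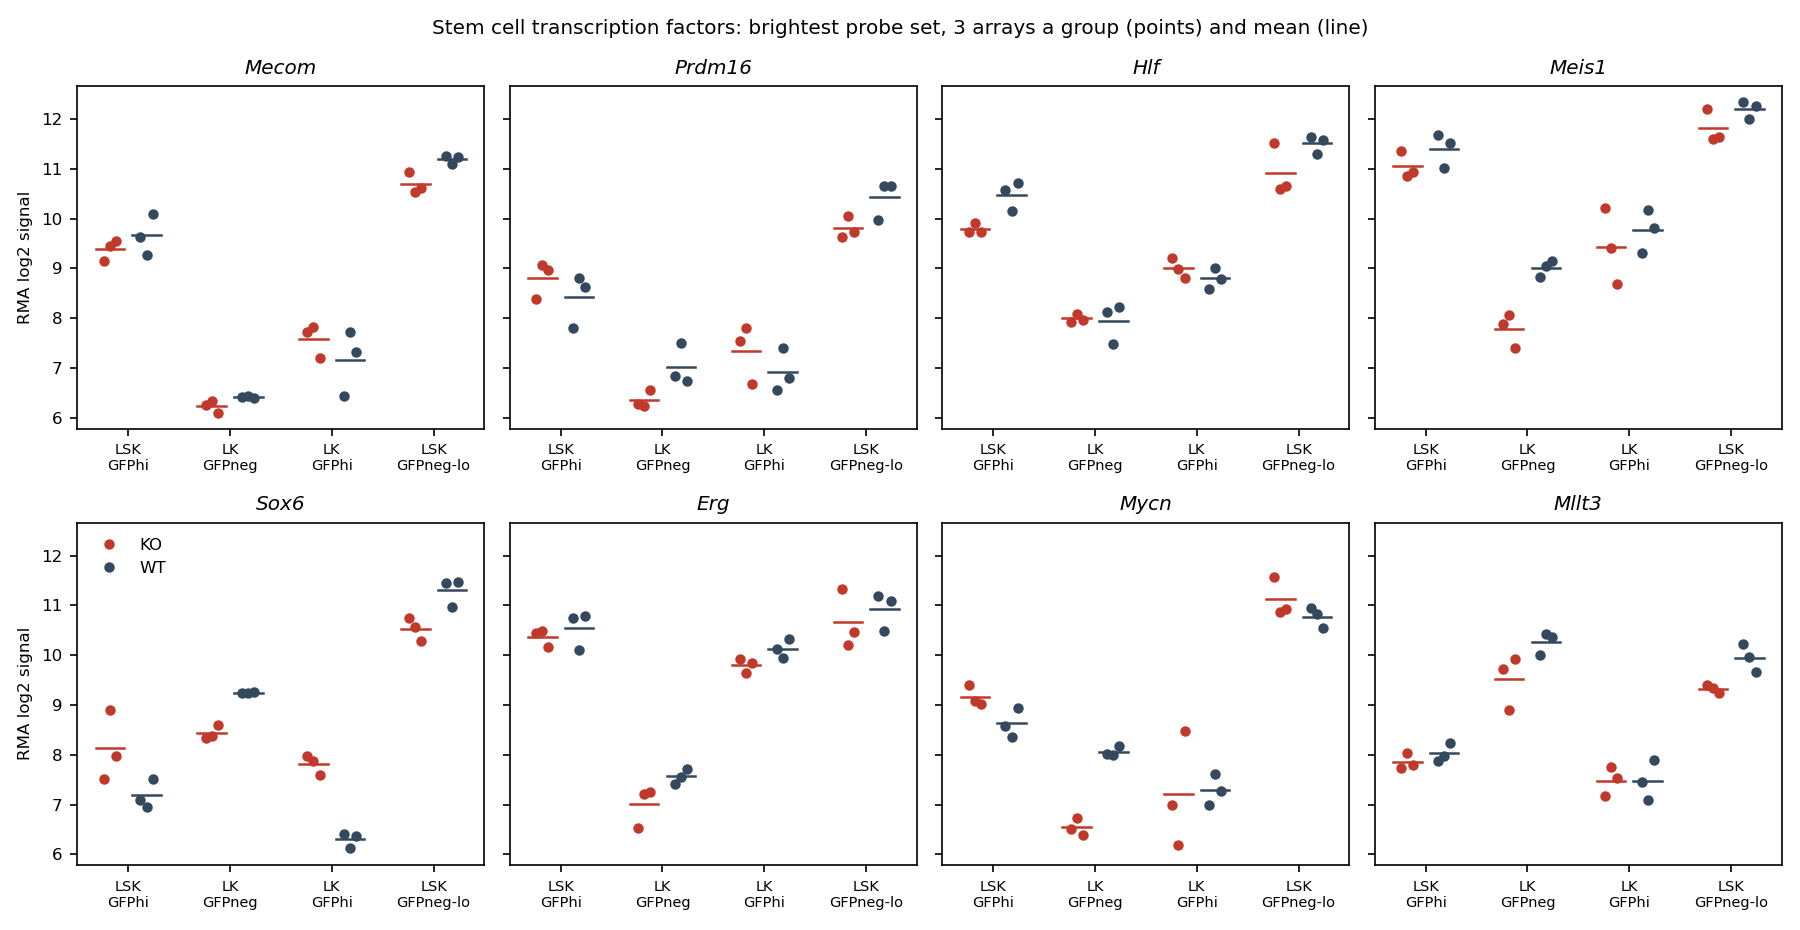
RMA log2 signal of the brightest probe set of each of the 8 genes (vertical axis) in the 4 sorted populations (horizontal axis), with KO arrays in red left of WT arrays in dark blue; points are arrays (3 a group) and lines are group means. Most genes are highest in LSK GFPneg-lo, Mllt3 is also high in LK GFPneg, and the KO points of Sox6 lie above the WT points in LK GFPhi and below them in LK GFPneg and LSK GFPneg-lo.

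Mecom was graded over all 4 populations. Its KO means were 9.38 ± 0.21 in LSK GFPhi, 6.23 ± 0.12 in LK GFPneg, 7.58 ± 0.33 in LK GFPhi and 10.70 ± 0.21 in LSK GFPneg-lo (SD, n = 3 each, here and below). The WT means were 9.67 ± 0.41, 6.43 ± 0.02, 7.16 ± 0.66 and 11.20 ± 0.08 in the same populations. Every step down the order LSK GFPneg-lo, LSK GFPhi, LK GFPhi and LK GFPneg passed in KO cells, and in WT cells all but the last (adjusted p = 0.0526). Prdm16, its relative, had a like gradient, with KO means of 8.81 ± 0.37, 6.35 ± 0.17, 7.34 ± 0.58 and 9.81 ± 0.22 and WT means of 8.42 ± 0.54, 7.03 ± 0.41, 6.92 ± 0.43 and 10.43 ± 0.40. Over the 24 arrays the brightest probe sets of the pair correlated at 0.953. The arrays share populations, so this describes the population gradient.

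Hlf was the gene most like Mecom among 4057 ranked genes, with r = 0.979 over 24 arrays. Its KO means were 9.79 ± 0.10 in LSK GFPhi, 8.0 ± 0.09 in LK GFPneg, 9.0 ± 0.20 in LK GFPhi and 10.92 ± 0.52 in LSK GFPneg-lo. The WT means were 10.48 ± 0.30, 7.94 ± 0.40, 8.80 ± 0.21 and 11.51 ± 0.19. In WT cells all 3 steps of its order passed, and in KO cells the step between LSK GFPhi and LK GFPhi did not (adjusted p = 0.117). Meis1 did not pass for LSK GFPhi minus LSK GFPneg-lo in KO cells (-0.76 ± 0.30, adjusted p = 0.365) or in WT cells (-0.80 ± 0.30, adjusted p = 0.217). Its KO means were 11.05 ± 0.27, 7.78 ± 0.34, 9.44 ± 0.76 and 11.81 ± 0.34, against WT means of 11.41 ± 0.34, 9.01 ± 0.16, 9.76 ± 0.43 and 12.21 ± 0.18. The LK GFPhi to LK GFPneg step of Meis1 passed in KO cells (1.66 ± 0.30, adjusted p = 0.000388) and not in WT cells (0.76 ± 0.30, adjusted p = 0.112).

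Erg was lowest in LK GFPneg. Its KO means were 10.37 ± 0.17 in LSK GFPhi, 9.80 ± 0.14 in LK GFPhi and 10.66 ± 0.59 in LSK GFPneg-lo, and its WT means were 10.54 ± 0.39, 10.13 ± 0.19 and 10.93 ± 0.38. No neighbouring pair among these passed in either genotype, but KO LK GFPhi was below KO LSK GFPneg-lo (-0.86 ± 0.26, adjusted p = 0.0428). In LK GFPneg cells Erg was at 7.0 ± 0.41 in the KO and 7.56 ± 0.15 in the WT, below LK GFPhi by 2.80 and 2.57. Mycn was highest in LSK GFPneg-lo, with KO means of 9.16 ± 0.20 in LSK GFPhi, 6.54 ± 0.17 in LK GFPneg, 7.22 ± 1.17 in LK GFPhi and 11.12 ± 0.40 in LSK GFPneg-lo, and WT means of 8.63 ± 0.29, 8.06 ± 0.11, 7.29 ± 0.31 and 10.78 ± 0.21. Its KO LK GFPhi arrays were far apart, at 7.0, 6.18 and 8.48 for replicates 1, 2 and 3. The high array, replicate 3, is the one with the high mast and basophil markers, whose part in this value was not tested.

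Mllt3 and Sox6 followed a second pattern, high in the GFP-negative or low populations and low in the GFPhi ones. Mllt3 was highest in LK GFPneg, with KO means of 7.85 ± 0.16 in LSK GFPhi, 9.52 ± 0.55 in LK GFPneg, 7.48 ± 0.30 in LK GFPhi and 9.32 ± 0.08 in LSK GFPneg-lo. Its WT means were 8.03 ± 0.18, 10.26 ± 0.22, 7.48 ± 0.40 and 9.95 ± 0.28. LK GFPneg and LSK GFPneg-lo showed no difference that passed for Mllt3 on its brightest probe set, at 0.19 ± 0.23 (adjusted p = 0.628) in KO cells and 0.32 ± 0.23 (adjusted p = 0.400) in WT cells. A dimmer one, 1453622_s_at, was higher in LK GFPneg, at 0.97 ± 0.18 (adjusted p = 0.000527) in KO cells and 1.27 ± 0.18 (adjusted p = 2.86e-05) in WT cells. The same split by GFP held in WT cells for Sox6, whose LK GFPneg level exceeded that of LK GFPhi by 2.94 (adjusted p = 2.13e-08). In KO cells this Sox6 gap was 0.62 and did not pass (adjusted p = 0.0808). Over all 8 genes and both genotypes, 27 of 48 neighbouring steps in the order of levels passed. Over all genes, the shares that passed were 25.2% in KO and 28.3% in WT cells for LK GFPneg minus LSK GFPhi, 0.989% and 3.95% for LK GFPhi minus LSK GFPhi, and 22.6% and 17.8% for LK GFPhi minus LK GFPneg.

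**Figure D2:**
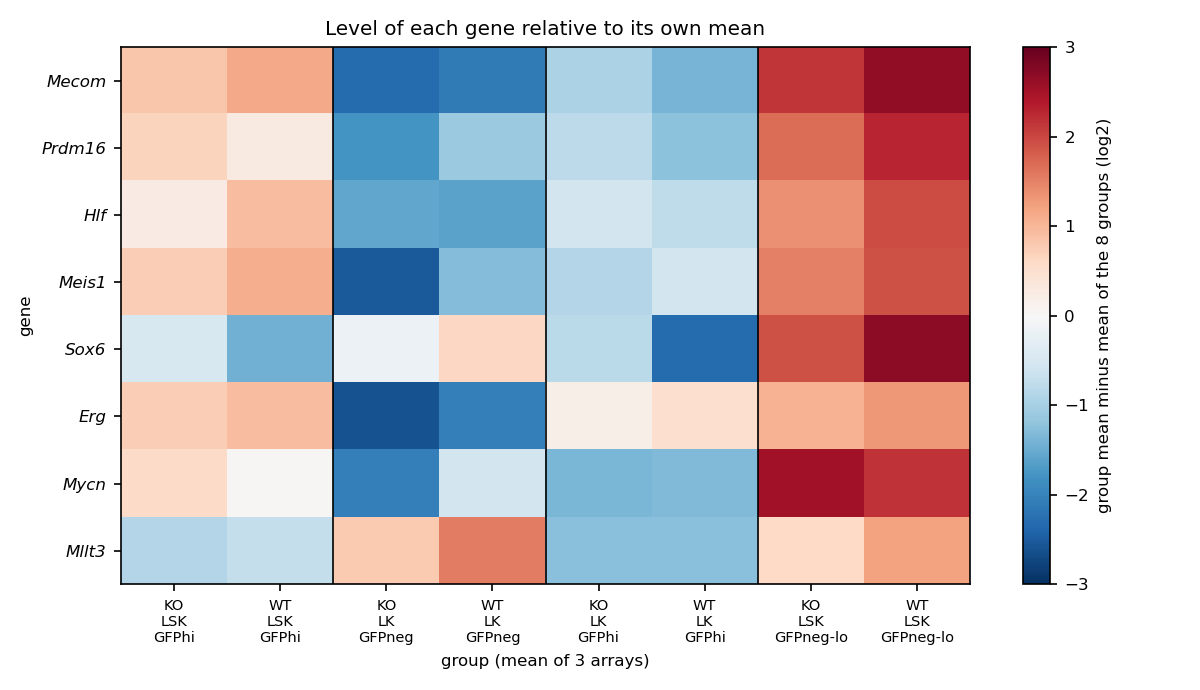
Group mean of each gene's brightest probe set minus its mean over the 8 groups, in log2 units (colour, red above and blue below), for the 8 genes (rows) and the KO and WT groups of each population (columns, 3 arrays each). LSK GFPneg-lo columns are red for all 8 genes, LK GFPneg columns are blue except for Mllt3 and for WT Sox6, and the Sox6 row is darker blue in WT than in KO LK GFPhi.

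The main question of the series is what differs between KO and WT cells. In LSK GFPneg-lo, the population named as stem cells, none of the 8 genes passed, while 1.92% of all genes did and 0.792% were lower. At an unadjusted p below 0.05, 3 of the 8 genes were lower in KO cells (Hlf, Mllt3 and Sox6), and so were 3.82% of all genes. The values were lower in KO cells for 7 of 8 genes, with a median of -0.54 against 0.03 over all genes. The arrays did not overlap for 3 genes, Mecom, Mllt3 and Sox6, all lower in KO cells, and 5.38% of all genes were lower without overlap.

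Sox6 had the most negative of these LSK GFPneg-lo differences. It measured 10.74, 10.56 and 10.28 on KO arrays and 11.46, 10.96 and 11.48 on WT arrays, so the highest KO array was under the lowest WT array. The difference was -0.77 ± 0.24 (adjusted p = 0.166), with a 95% interval of -1.28 to -0.26. On probe set 1434918_at Sox6 was at -0.62 ± 0.16 (adjusted p = 0.0521), and with replicate number as a block it passed, at an adjusted p of 0.0234. On 1447655_x_at the Sox6 means were 9.43 in KO and 10.10 in WT cells, and on 1426018_a_at 5.55 and 5.57. The arrays overlapped on both. Hlf measured 11.52, 10.61 and 10.65 on KO arrays and 11.64, 11.30 and 11.59 on WT arrays. KO replicate 1 lay within the WT range and the other KO arrays lay below it. Its difference was -0.59 ± 0.22 (adjusted p = 0.317), and without KO replicate 1 it was -0.88 (adjusted p = 0.0280), which passed. The second probe set of Hlf gave -1.0 ± 0.32 (adjusted p = 0.174), with no overlap. 

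Mecom measured 10.94, 10.54 and 10.62 on KO arrays and 11.26, 11.10 and 11.23 on WT arrays, with a difference of -0.50 ± 0.25 (adjusted p = 0.585). All 3 KO arrays were below the WT arrays, though the interval of -1.02 to 0.02 includes 0. Prdm16 (-0.62 ± 0.31), Mllt3 (-0.62 ± 0.23), Meis1 (-0.39 ± 0.30), Erg (-0.26 ± 0.26) and Mycn (0.35 ± 0.36) did not pass either. The second probe set of Prdm16, 1440745_at, had means of 7.51 in KO and 7.56 in WT cells, and that of Mllt3, 1431890_a_at, 8.77 and 9.34. The dimmest Meis1 probe set, 1459423_at, differed widely between arrays of a group, and replicate 2 was its highest array in every group. Its difference was -1.11 ± 0.60 (adjusted p = 0.668). With replicate number as a block, that Meis1 value passed (adjusted p = 0.0403). 

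In LSK GFPhi, 1 of 8 genes passed, Sox6, which was 1.93-fold higher in KO cells, while 4.22% of all genes passed and 2.67% were higher. Sox6 measured 7.51, 8.90 and 7.98 on KO arrays and 7.10, 6.94 and 7.51 on WT arrays. KO replicate 1 and WT replicate 3 were level at this precision, and KO replicate 2 was the highest array. The difference was 0.95 ± 0.24 (adjusted p = 0.0328), and probe set 1447655_x_at gave 1.14 ± 0.29 (adjusted p = 0.0289). Without KO replicate 2 the first value was 0.56 (adjusted p = 0.203) and the second 0.67 (adjusted p = 0.153). Without any of 3 other arrays the call on the brightest probe set was lost as well, and fitting the LSK GFPhi arrays by themselves gave an adjusted p of 0.312.

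Hlf fell in KO LSK GFPhi cells on its second probe set, in a comparison where 3.32% of all probe sets passed. That set measured 9.63, 10.17 and 9.96 on KO arrays and 11.16, 11.22 and 11.06 on WT arrays, a 2.34-fold difference with no overlap (-1.23 ± 0.32, adjusted p = 0.0367). The brightest probe set of Hlf measured 9.73, 9.91 and 9.74 on KO arrays and 10.58, 10.15 and 10.72 on WT arrays, again without overlap, but did not pass (-0.69 ± 0.22, adjusted p = 0.119). The call on the second probe set was lost without any 1 of the 6 arrays (differences of -1.35 to -1.08, adjusted p between 0.0577 and 0.165), and with Eif2s3y as a covariate (-1.39, adjusted p = 0.0819). For the other 6 genes the values ran from -0.35 ± 0.30 (Meis1) to 0.54 ± 0.36 (Mycn), and none passed. Over the 8 genes the arrays did not overlap for 2 higher and 1 lower gene in KO cells, (Sox6 and Mycn, and Hlf), against 9.67% higher and 6.82% lower of all genes. The median was -0.18, against 0.01 over all genes.

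In LK GFPneg, 2 of 8 genes passed, both lower in KO cells: Meis1 and Mycn. Over all genes 2.31% passed and 1.25% were lower. On the brightest probe sets, the arrays of 7 genes, all but Hlf, did not overlap and were lower in KO cells, against 5.61% of all genes. Other probe sets that tracked the brightest were not all lower. Prdm16 1440745_at had a mean of 6.51 in KO and 6.35 in WT cells, and Sox6 1426018_a_at was at 5.35 in both. The means of Sox6 1434918_at and 1447655_x_at and of Mllt3 1431890_a_at were lower in KO cells. The median of the 8 genes was -0.71, against 0.04 over all genes.

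Meis1 measured 7.88, 8.06 and 7.40 on KO LK GFPneg arrays and 8.83, 9.04 and 9.16 on WT arrays. The highest KO array was below the lowest WT array, and the difference was -1.23 ± 0.30 (adjusted p = 0.0397). Of all probe sets 1.77% passed. The second probe set of Meis1, 1450992_a_at, measured 6.11, 6.34 and 6.30 on KO arrays and 8.09, 7.78 and 8.02 on WT arrays, a 3.28-fold difference (-1.71 ± 0.20, adjusted p = 2.71e-05). The dimmest Meis1 probe set, 1459423_at, had overlapping arrays, with means of 5.89 in KO and 5.97 in WT cells. The second probe set passed without each of the 6 arrays in turn. The brightest one passed without KO replicate 2 alone, with adjusted p of 0.0816 to 0.173 without each of the other 5 arrays. Meis1 lies on chromosome 11 at 18880428 to 19019651 (GRCm38.p6), 7.11 Mb from Ikzf1. The Ikaros null line has 129SV background, so a linked strain difference at Meis1 and loss of Ikaros cannot be told apart. Hlf is on chromosome 11 too, 78.6 Mb away, and the other 6 genes are on chromosomes 3, 4, 7, 12 and 16.

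Mycn measured 6.52, 6.72 and 6.38 on KO LK GFPneg arrays and 8.01, 7.98 and 8.18 on WT arrays. The groups did not overlap. Mycn was 2.87-fold lower in KO cells (-1.52 ± 0.36, adjusted p = 0.0337), with a 95% interval of -2.28 to -0.76. The Mycn call was lost without any 1 of the 6 arrays, where the value stayed between -1.61 and -1.44 and the adjusted p between 0.0566 and 0.140. With Eif2s3y as a covariate Mycn was at -1.50 (adjusted p = 0.249) and Meis1 at -1.51 (adjusted p = 0.0693), and neither passed. The second Meis1 probe set passed in that fit.

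Of the 5 genes of LK GFPneg that were lower without overlap and did not pass, Sox6 measured 8.34, 8.37 and 8.59 on KO arrays and 9.24, 9.23 and 9.27 on WT arrays (-0.81 ± 0.24, adjusted p = 0.124). Fitted with the LK GFPneg arrays by themselves, Sox6 passed (adjusted p = 0.0321). Mllt3 measured 9.73, 8.89 and 9.93 on KO arrays and 10.01, 10.43 and 10.36 on WT arrays (-0.75 ± 0.23, adjusted p = 0.157). Its dimmer probe set 1453622_s_at was at -0.68 ± 0.18 (adjusted p = 0.0681) and passed with replicate number as a block (adjusted p = 0.0398). Prdm16 was at -0.67 ± 0.31 (adjusted p = 0.532), Erg at -0.56 ± 0.26 (adjusted p = 0.518) and Mecom at -0.19 ± 0.25 (adjusted p = 0.943). LK GFPneg holds the lowest of the 4 population means of Mecom in both genotypes.

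In LK GFPneg, few markers of other cells passed. Erythroid marker means were 11.87 to 12.38 on KO arrays and 12.18 to 12.30 on WT arrays, with 0 of 7 genes passing. Granulocyte and monocyte progenitor means were 7.54 to 8.08 on KO arrays and 7.66 to 8.37 on WT arrays, with 0 of 7. Of 8 megakaryocyte markers 1 was lower, of 5 mast and basophil markers 1 was higher, of 13 endothelial markers 1 was higher, and of 6 lymphoid and 6 HSC surface markers 0 passed. The part of these markers in the Meis1 and Mycn values was not tested.

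In LK GFPhi, Sox6 was again the 1 gene of 8 that passed, higher in KO cells, with 9.03% of all genes passing and 5.46% higher. Sox6 measured 7.98, 7.87 and 7.59 on KO arrays and 6.41, 6.13 and 6.37 on WT arrays. The groups did not overlap, and the difference was 1.51 ± 0.24 (adjusted p = 0.000519), or 2.84-fold. Probe set 1447655_x_at measured 7.16, 7.12 and 7.33 on KO arrays and 4.78, 5.07 and 4.79 on WT arrays, a 5.0-fold difference (2.32 ± 0.29, adjusted p = 3.16e-05). Of all probe sets 8.35% passed. Both Sox6 values passed under every alternative run and without each of the 6 arrays in turn.

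The other Sox6 probe sets had smaller values of the same sign. Probe set 1434918_at gave 0.42 ± 0.16 (adjusted p = 0.105) and 1426018_a_at gave 0.40 ± 0.13 (adjusted p = 0.0745) in LK GFPhi. The second of these passed with replicate number as a block (adjusted p = 0.0483). The other 7 genes did not pass and had values between -0.33 ± 0.26 (Erg) and 0.43 ± 0.31 (Prdm16). Mecom, at 0.42 ± 0.25, and Mllt3, at 0.00 ± 0.23, were among them. Besides Sox6, Erg alone had arrays without overlap, lower in KO cells. Over all genes 17.1% were higher and 7.74% lower without overlap. The median was 0.10, against 0.07 over all genes.

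**Figure D3:**
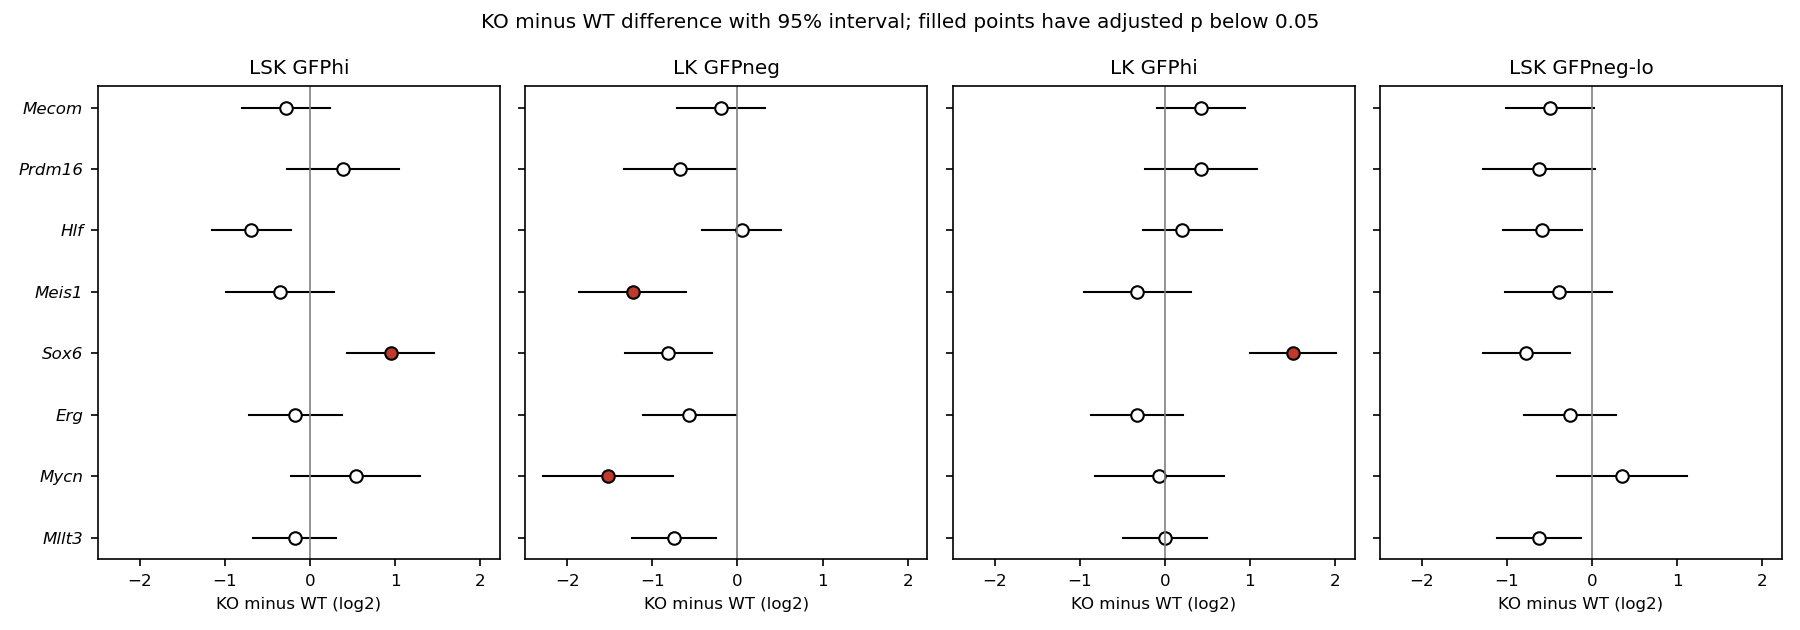
KO minus WT difference of each gene's brightest probe set (horizontal axis, log2; points with 95% limma intervals, 3 arrays a group) in the 4 populations (panels); filled points have an adjusted p below 0.05. Filled points are Sox6 in LSK GFPhi and LK GFPhi, right of 0, and Meis1 and Mycn in LK GFPneg, left of 0; in LSK GFPneg-lo none is filled.

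The KO effect on Sox6 differed between populations by test. The KO effect in LK GFPhi minus that in LSK GFPneg-lo was 2.28 ± 0.34 (adjusted p = 0.00220), while 0.737% of all genes passed this interaction. The KO effect in LSK GFPhi minus that in LSK GFPneg-lo was 1.72 ± 0.34 (adjusted p = 0.0405, background 0.258%), and this call was lost without 7 of the 12 arrays and when those 12 arrays were fitted by themselves (adjusted p = 0.349). LK GFPhi minus LK GFPneg gave 2.32 ± 0.34 (adjusted p = 0.000639, background 2.22%), and LK GFPneg minus LSK GFPhi gave -1.76 ± 0.34 (adjusted p = 0.00823, background 1.80%). Between the 2 GFPhi populations the difference in the KO effect on Sox6 did not pass (0.56 ± 0.34, adjusted p = 0.766, 95% interval -0.16 to 1.28, background 0.110%), nor did that between LK GFPneg and LSK GFPneg-lo (-0.04 ± 0.34, adjusted p = 1.0, 95% interval -0.76 to 0.68, background 0.671%). In LSK GFPneg-lo and LK GFPneg all 3 KO arrays lay below the WT arrays, and in LK GFPhi all 3 lay above. In LSK GFPhi they lay above too, with 1 nearly level pair.

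The levels of Sox6 lay closer together in KO than in WT cells. The span from the highest to the lowest population mean was 2.72 in KO cells and 5.0 in WT cells, both between LSK GFPneg-lo and LK GFPhi. Sox6 probe set 1447655_x_at spanned 2.62 in KO cells, down to LK GFPneg, and 5.22 in WT cells, down to LK GFPhi.

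**Figure D4:**
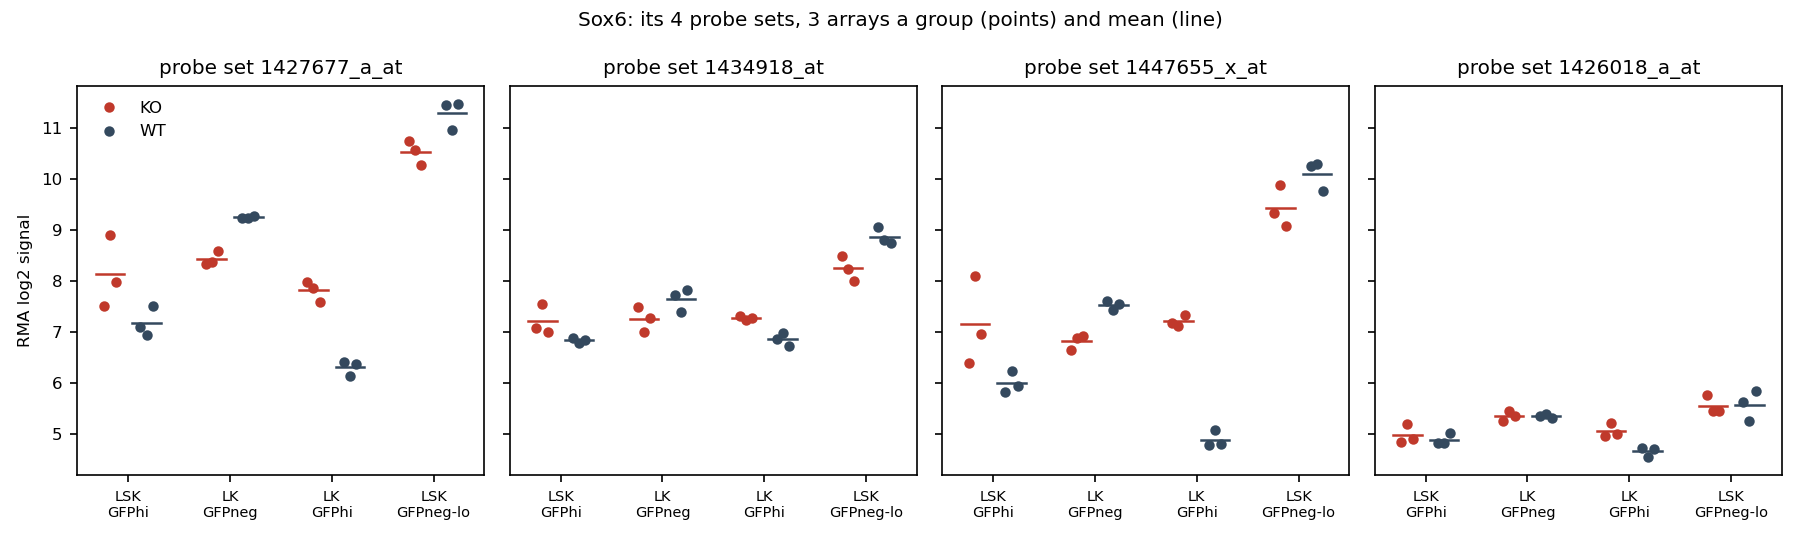
RMA log2 signal (vertical axis) of the 4 Sox6 probe sets (panels) in the 4 populations (horizontal axis), with KO arrays in red left of WT arrays in dark blue; points are arrays and lines are means of 3. In the first 3 panels all KO means lie above the WT means in both GFPhi populations and below them in LK GFPneg and LSK GFPneg-lo, and the widest gap is that of 1447655_x_at in LK GFPhi.

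Other interactions passed for Meis1, on its second probe set alone. The KO effect in LK GFPneg minus that in LSK GFPneg-lo was -1.65 ± 0.28 (adjusted p = 0.00559), LK GFPneg minus LSK GFPhi gave -1.71 ± 0.28 (adjusted p = 0.00158), and LK GFPhi minus LK GFPneg gave 2.07 ± 0.28 (adjusted p = 0.000273). On the brightest Meis1 probe set the same 3 values were -0.83 ± 0.43 (adjusted p = 1.0), -0.88 ± 0.43 (adjusted p = 0.718) and 0.90 ± 0.43 (adjusted p = 0.523). The Mycn effect in LK GFPneg minus that in LSK GFPhi was -2.05 ± 0.51 (adjusted p = 0.0532). For Mecom, Prdm16, Hlf, Mllt3 and Erg no interaction passed on any probe set.

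Averaged over the 4 populations, Meis1 (-0.58 ± 0.15, adjusted p = 0.0133) and Mllt3 (-0.39 ± 0.12, adjusted p = 0.0314) were lower in KO cells and 6 genes did not pass, while 15.5% of all genes passed and 6.13% were lower. Of all probe sets 14.1% passed. The second probe sets of Meis1 (-0.36 ± 0.10, adjusted p = 0.0195) and of Hlf (-0.60 ± 0.16, adjusted p = 0.0148) were also lower, and Sox6 1447655_x_at was higher (0.52 ± 0.14, adjusted p = 0.0182). The KO effects behind the mean of the second Meis1 probe set were 0.00 ± 0.20 in LSK GFPhi, -1.71 ± 0.20 in LK GFPneg, 0.35 ± 0.20 in LK GFPhi and -0.07 ± 0.20 in LSK GFPneg-lo. The mean of Sox6 1447655_x_at joins effects of opposite sign. Its KO level was above WT in LSK GFPhi (7.14 and 6.00) and LK GFPhi (7.20 and 4.88). It was below WT in LK GFPneg (6.81 and 7.53) and LSK GFPneg-lo (9.43 and 10.10). The brightest probe set of Sox6 did not pass for the mean. Neither Meis1 nor Mllt3 passed on the brightest probe set with Eif2s3y as a covariate.

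Markers of other cell types also differed between KO and WT cells in the GFPhi populations, where Sox6 was higher in KO cells. Of 6 HSC surface markers, 3 were higher in KO cells in both: Fgd5 (3.90 ± 0.27 in LSK GFPhi and 4.77 ± 0.27 in LK GFPhi), Procr (2.48 ± 0.27 and 2.62 ± 0.27) and Vwf (3.20 ± 0.53 and 2.45 ± 0.53). The mean over the 6 was 10.30 to 10.52 on KO LSK GFPhi arrays, against 8.44 to 8.96 on WT arrays. In LK GFPhi it was 9.59 to 9.99 on KO arrays, against 8.24 to 8.26 on WT arrays. Mecom, Prdm16, Hlf, Meis1, Erg and Mycn did not pass as higher in either GFPhi population, and their values went both ways. In LSK GFPhi the means of Mycn and Prdm16 were higher in KO cells, and those of Mecom, Hlf, Meis1 and Erg were lower. Of these, Mycn and Hlf had arrays without overlap. In LK GFPhi the means of Mecom, Prdm16 and Hlf were higher in KO cells, and those of Meis1, Erg and Mycn were lower. The part of the HSC surface markers in these values was not tested.

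Of 6 lymphoid markers, 6 were lower in KO than in WT cells of LSK GFPhi and 5 in LK GFPhi. Their mean was 8.23 to 8.69 on KO LSK GFPhi arrays, against 10.001 to 10.274 on WT arrays. Of 8 megakaryocyte markers 3 were higher in each GFPhi population, among them Selp (3.84 ± 0.28 in LSK GFPhi and 4.03 ± 0.28 in LK GFPhi), and of 13 endothelial markers 4 and 5 were higher, led by Cdh5 (5.32 ± 0.13 and 4.71 ± 0.13). The endothelial mean was 7.81 to 7.96 on KO LSK GFPhi arrays, against 6.65 to 6.84 on WT arrays, and 7.26 to 7.65 on KO LK GFPhi arrays, against 6.45 to 6.73 on WT arrays. In LK GFPhi 1 endothelial marker was lower. Of 5 mast and basophil markers 2 were higher in LSK GFPhi and 4 in LK GFPhi, and of 7 granulocyte and monocyte markers 3 were higher in LSK GFPhi and 0 passed in LK GFPhi. In LSK GFPneg-lo, where no regulator passed, 5 endothelial, 3 megakaryocyte, 3 granulocyte and monocyte, 1 HSC surface and 1 mast and basophil marker were higher and 1 lymphoid marker was lower.

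Of 7 erythroid markers 0 passed in LSK GFPhi and 2 in LK GFPhi, Gata1 (2.14 ± 0.46) and Klf1 (1.27 ± 0.36). The erythroid mean was 8.26 to 9.20 on KO LK GFPhi arrays, against 7.80 to 8.15 on WT arrays, and the highest array was KO replicate 3. On that replicate Sox6 was at 7.59, and the Sox6 difference without it was 1.62. The part of these marker lists in the Sox6 result was not tested.

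Partners and relatives of the 8 regulators were counted next. Of 13 measured partners and relatives of Meis1, Hoxa9, its HOX partner in blood, was lower in KO LK GFPneg cells (-2.30 ± 0.21, adjusted p = 1.40e-06), at 7.16, 7.87 and 8.35 on KO arrays and 9.93, 9.99 and 10.36 on WT arrays. Hoxa9 and Meis1 were both lower there, and Pbx3, a PBX partner, was higher (1.15 ± 0.28, adjusted p = 0.0389). In LSK GFPneg-lo, 2 of the 13 were lower, Hoxa10 (-0.84 ± 0.19) and Trib2 (-1.06 ± 0.18), a pseudokinase gene that cooperates with Meis1 in leukaemia. Trib2 was also lower in LSK GFPhi (-0.90 ± 0.18). In LK GFPhi, Hoxa5 was higher (0.37 ± 0.09). The medians of the 13 were 0.02 in LSK GFPhi, -0.03 in LK GFPneg, 0.04 in LK GFPhi and -0.02 in LSK GFPneg-lo, against 0.01, 0.04, 0.07 and 0.03 over all genes.

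Of 24 other stem cell regulators, between 0 and 3 were higher and 0 or 1 lower in each population. Their medians were 0.05 in LSK GFPhi, -0.08 in LK GFPneg, 0.17 in LK GFPhi and 0.04 in LSK GFPneg-lo. Gata2, a zinc finger factor of stem cells and mast cells and a reported target of EVI1, was lower in KO LK GFPneg cells (-0.77 ± 0.18) and higher in KO LK GFPhi cells (1.39 ± 0.18, adjusted p = 5.45e-05). It measured 11.11, 11.31 and 11.22 on KO LK GFPhi arrays and 9.58, 10.12 and 9.76 on WT arrays. Tal1 (1.09 ± 0.20) and Gfi1 (1.37 ± 0.30), further regulators of early blood cells, were also higher in KO LK GFPhi. Ndn, a growth suppressor gene, was lower in KO LSK GFPhi (-2.01 ± 0.30) and LSK GFPneg-lo cells (-1.92 ± 0.30). Tcf15 was higher in LSK GFPhi (0.59 ± 0.11). Of the 4 measured genes on the list of reported targets, Gata2 was the only one that passed in any population, and their medians were 0.03 in LSK GFPhi, -0.02 in LK GFPneg, 0.15 in LK GFPhi and -0.01 in LSK GFPneg-lo.

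Of 7 Sox relatives (medians 0.08 in LSK GFPhi, 0.08 in LK GFPneg, 0.23 in LK GFPhi and 0.14 in LSK GFPneg-lo), Sox18, an endothelial factor, was higher in KO cells of LSK GFPhi (2.68 ± 0.21), LK GFPhi (1.39 ± 0.21) and LSK GFPneg-lo (2.12 ± 0.21). In LK GFPhi, Sox13, a SoxD gene like Sox6, was higher (0.53 ± 0.13) and Sox4 lower (-1.74 ± 0.41). Of 4 genes, the Sox6 cofactor Bcl11a and 3 embryonic globin genes (medians -0.06 in LSK GFPhi, 0.12 in LK GFPneg, 0.23 in LK GFPhi and 0.01 in LSK GFPneg-lo), 1 passed, the globin gene Hbb-bh1 in LK GFPhi (0.36 ± 0.08). Of 14 ETS relatives of Erg (medians 0.08 in LSK GFPhi, -0.13 in LK GFPneg, -0.10 in LK GFPhi and 0.04 in LSK GFPneg-lo), Ets2 was higher in LSK GFPhi (0.84 ± 0.22), and Elf2 (-1.15 ± 0.25) and Elk4 (-0.48 ± 0.12) were lower in LK GFPhi.

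Of 18 genes of the super elongation and DOT1L complexes, in which AF9 works, 3 were lower in KO LK GFPhi cells: Ccnt2 (-1.24 ± 0.22) and Cdk9 (-0.48 ± 0.12), which encode the kinase pair of elongation, and Aff3 (-0.68 ± 0.17). The median of the 18 there was -0.34, and 0 passed in the other 3 populations. Their medians in LSK GFPhi, LK GFPneg and LSK GFPneg-lo were -0.05, -0.10 and -0.02. Of 12 genes of the MYC and MAX network, 3 bZIP relatives of Hlf and 8 PRDM relatives, 0 passed in any population. The medians were between -0.13 and 0.04 for the first and the last and between -0.22 and 0.27 for the bZIP genes. These lists were chosen with earlier results of these data known.

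The genes with the most similar profiles were ranked by Pearson r over the 24 arrays among 4057 genes whose group means span at least 1 log2 unit. The r values describe shared population differences and carry no test. After Hlf, Mecom was most like Gimap8 (0.976) and Gimap1 (0.969), and Prdm16 was most like Gimap5 (0.968), Mecom (0.953) and Dst (0.947). Hlf was followed by Mecom (0.979), Cadps2 (0.960) and Pear1 (0.957), and Meis1 by Mecom (0.954), Gabbr1 (0.952) and Mrtfb (0.952). Erg had the closest companions, Antxr2 (0.988), Mdfic (0.985) and Zfp608 (0.976). Mycn was followed by Mmrn1 (0.964), Txnip (0.943) and Rgs1 (0.942). Mllt3 (Slc12a2 at 0.949, Zdhhc17 at 0.927 and St7 at 0.926) and Sox6 (Rab40b at 0.917, Slc18a2 and Ttc39b both at 0.911) completed the 8 profiles. Erg, Mycn, Mllt3 and Sox6 had no other of the 8 genes among their 3 nearest. Mllt3 and Sox6 correlated with each other at 0.767, and Mllt3 with Mecom at 0.0504 and with Erg at -0.410.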

How the data were processed

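RNA from 24 sorted cell samples (8 groups of 3) was extracted with Trizol and 6 ug of total RNA was made into biotinylated cRNA for Affymetrix arrays, per the labels. The deposited table holds log2 values for 45101 probe sets (3.33 to 14.5), made by the authors with RMA, which corrects background, normalizes quantiles and summarises probes, per the submitters' processing notes; the sources used here do not give its version. Control probe sets (64) and those with several symbols (932) or none (9160) were left out. Microarray values carry no read depth, and the number of arrays limits precision.

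The 34945 remaining probe sets were fitted with limma 3.58.1 (R 4.3.3), as 8 group means with 16 residual and 2.95 prior degrees of freedom. P-values are two-sided and moderated, with Benjamini-Hochberg adjustment over all probe sets within each of 23 contrasts, and a value passed at an adjusted p below 0.05. The share of all genes or probe sets that passed is given beside the first count of the 8 genes in a comparison. Errors of differences are standard errors of the fit.

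The members and the gene and marker lists were chosen with earlier results of these data known. Named genes are the 8 members, the 3 genes most correlated with each (clone names passed over), and listed genes that passed between KO and WT. Hoxa9 and Gata2 are given per array because they passed in the lists. Same-numbered arrays are not said to be paired; their deviations from group means correlated in every pair (lowest r 0.282 in LSK GFPneg-lo, 0.402 in LK GFPneg and 0.210 in LK GFPhi, KO with WT), but not in LSK GFPhi (0.0277), so replicate number was tried as a block. Between populations they did so in every WT comparison. Other alternatives were a fit of only the groups compared, 1 probe set a gene, the dimmest 40% left out, _x_at and _s_at probe sets left out, trend and robust eBayes, array weights, further quantile normalization and each array left out. Eif2s3y level as a covariate, and genotype with replicate number as a block, were chosen after the data were seen. The code of the fit was tried on simulated data with independent noise between arrays. That trial leaves out the correlation of same-numbered arrays.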

Additional observations from a re-analysis of the deposited data

Results flagged for a closer look

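The values below are differences between populations in the KO effect (log2, KO minus WT) that passed in the interaction test of limma, with Benjamini-Hochberg adjusted p. For Sox6 on its brightest probe set, the KO effect in LSK GFPhi exceeded that in LSK GFPneg-lo by 1.72 (adjusted p = 0.0405), and the KO effect in LK GFPhi exceeded it by 2.28 (adjusted p = 0.00220). LK GFPneg minus LSK GFPhi was -1.76 (adjusted p = 0.00823) and LK GFPhi minus LK GFPneg was 2.32 (adjusted p = 0.000639).

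On Sox6 probe set 1447655_x_at, LK GFPhi minus LSK GFPneg-lo was 2.99 (adjusted p = 0.000885), LK GFPhi minus LK GFPneg was 3.03 (adjusted p = 0.000234) and LK GFPneg minus LSK GFPhi was -1.85 (adjusted p = 0.0202). On Sox6 probe set 1434918_at, LK GFPhi minus LSK GFPneg-lo was 1.04 (adjusted p = 0.0344), and without single arrays it passed in 3 of 12 fits. Probe sets of 1 gene share its transcript and are no separate evidence of it.

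For Meis1 on probe set 1450992_a_at, LK GFPneg minus LSK GFPneg-lo was -1.65 (adjusted p = 0.00559), LK GFPneg minus LSK GFPhi was -1.71 (adjusted p = 0.00158) and LK GFPhi minus LK GFPneg was 2.07 (adjusted p = 0.000273). The brightest Meis1 probe set had the same signs and did not pass. These interactions share arrays with each other.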

How the results depend on the processing

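Counts are of the 8 regulators. Sox6 in KO LK GFPhi passed under all 9 alternatives (adjusted p from 0.000337 to 0.00845) and without each of the 6 arrays in turn (1.42 to 1.62), and the count there stayed at 1. In LSK GFPneg-lo the count of 0 became 2 with array weights (Hlf and Sox6), and was 0 to 1 without single arrays. In LSK GFPhi the count of 1 became 0 in a fit of only the groups compared and 2 with array weights (Hlf and Sox6), and was 0 to 1 without single arrays. In LK GFPneg the count of 2 became 4 with array weights (Meis1, Sox6, Erg and Mycn), 1 with further quantile normalization (Mycn) and 0 with Eif2s3y as a covariate, and was 0 to 1 without single arrays. With only the groups compared it stayed at 2, as Sox6 and Mycn.

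For the interactions, LSK GFPhi minus LSK GFPneg-lo changed from 1 to 0 in a fit of only the groups compared and was 0 to 1 without single arrays. LK GFPneg minus LSK GFPneg-lo changed from 0 to 1 (Mycn) in a fit of only the groups compared and with array weights, and was 0 without any single array. LK GFPhi minus LSK GFPneg-lo changed from 1 to 3 with array weights (Mecom, Hlf and Sox6), and was 1 without any single array. For the mean KO effect the count of 2 became 4 with array weights and 0 with Eif2s3y as a covariate, and was 1 to 4 without single arrays. Between populations no alternative moved a count by over 1.5 times. Without single arrays the WT counts were 5 to 6 in LSK GFPhi, 7 in LK GFPneg and 7 to 8 in LK GFPhi, the KO counts were 5, 7 and 7 to 8, and the count of neighbouring steps was 26 to 28. Replicate number as a block left every count of regulators as it was, and the 4 further probe sets that passed with it between KO and WT are given where they are described. In the interaction LSK GFPhi minus LSK GFPneg-lo, deviations of same-numbered arrays correlated at a median r of 0.493, but not in every pair (lowest r 0.0277). There the block also brought past the threshold Sox6 1447655_x_at (1.81, adjusted p = 0.0241) and 1434918_at (0.99, adjusted p = 0.0484). The causes of these changes were not tested.

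Over all probe sets, the counts that passed between KO and WT moved with several settings. In LSK GFPneg-lo 553 passed, against 1319 with the block, 1615 with array weights, 200 in a fit of only the groups compared and 279 with Eif2s3y. In LSK GFPhi 1161 passed, against 2037 with the block, 1747 with array weights and 678 with Eif2s3y. In LK GFPneg 618 passed, against 1259 with the block, 1626 with array weights, 207 with only the groups compared and 280 with Eif2s3y. In LK GFPhi 2918 passed, against 6880 with the block, 4595 with array weights, and 574 in a fit of only the groups compared. Leaving out single arrays moved the shares of all genes and probe sets too. The lowest probe set counts without 1 array were 1618 in LK GFPhi, 370 in LK GFPneg, 774 in LSK GFPhi and 326 in LSK GFPneg-lo. Of LK GFPhi minus LSK GFPhi, 718 WT genes passed, against 239 without WT LK GFPhi replicate 1 and 1527 without WT LK GFPhi replicate 2, and 180 KO genes passed, against 56 without KO LSK GFPhi replicate 3. Signs turned only for probe set values that did not pass, among them 158 values without single arrays, 14 with array weights, 10 with quantile normalization and 6 with Eif2s3y. Signal limits Mecom, Erg and Mycn to 1 informative probe set each.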
